A study of Mus musculus with 20 samples.

Results

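Nr2f1, Nr2f2, Nr2f6 and Nr2e1 encode orphan nuclear receptors of the NR2 family, and their levels were followed in each cell type of cultured mouse retina. The members were taken by gene symbol and are 4 of the 23260 genes in the count table, and each of them was found. The retinal explants came from wildtype CD1 mice and carry no engineered allele. Sample titles name a GFP control, MEIS1, MEIS2 or the combination of both as the construct, and P2 or P5 as the age. There are 20 libraries in 8 groups, with 4 controls and 2 each of MEIS1, MEIS2 and the combination at either age. Where titles have MEIS1 and MEIS2, the text on the series' design has NR2F1 and NR2F2, in a vector that expresses GFP, and where they have an age it has 2 or 5 days of treatment. It also says that GFP-positive cells were isolated and run on a 10x Genomics 3′ kit, so every group was meant to hold only cells that took up a plasmid. Uptake was not tested here. No label says whether libraries of 1 group came from separate cultures or animals, so the p-values measure the spread between these libraries, which may be technical.

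Nuclear receptors are transcription factors that bind DNA through zinc fingers, and orphan members are those first named without a known ligand. Nr2f1 and Nr2f2, also called COUP-TFI and COUP-TFII, are close relatives that bind repeats of a short half-site, mostly repress transcription, and act in the patterning of the eye and in the choice of amacrine and cone fates. Nr2f6, also called EAR2, is a more distant relative of the same subfamily. Nr2e1, also called Tlx, is a repressor that keeps neural stem cells and retinal progenitors dividing. MEIS1 and MEIS2 are homeodomain factors that recognise a short DNA core.

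The stretch of coding sequence at which the DNA-binding zinc-finger region begins is shown for each member, because the zinc fingers are the part of the protein that defines the nuclear receptors. Capitals mark bases that differ from Nr2f1 when the 90 bases are laid side by side without gaps. The stretches lie on the minus strand of mm10 at chr13:78198271-78198360 for Nr2f1, chr7:70360039-70360128 for Nr2f2 and chr8:71381047-71381136 for Nr2f6, each in exon 1 of its transcript in GENCODE vM21. In Nr2e1 the stretch spans chr10:42578235-42582894, with 13 bases in exon 1 and the rest in exon 2.

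Nr2f1: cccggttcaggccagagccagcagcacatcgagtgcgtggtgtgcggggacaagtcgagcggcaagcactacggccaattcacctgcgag

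Nr2f2: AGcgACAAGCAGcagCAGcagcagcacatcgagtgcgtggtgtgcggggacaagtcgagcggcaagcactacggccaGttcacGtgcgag

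Nr2f6: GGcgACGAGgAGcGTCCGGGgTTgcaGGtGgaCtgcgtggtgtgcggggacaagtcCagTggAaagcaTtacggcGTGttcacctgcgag

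Nr2e1: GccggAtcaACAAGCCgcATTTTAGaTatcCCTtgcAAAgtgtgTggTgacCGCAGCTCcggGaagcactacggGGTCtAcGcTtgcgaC

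Of these 90 bases, 15 differ from Nr2f1 in Nr2f2, 29 in Nr2f6 and 42 in Nr2e1. The longest run shared by the Nr2f1 and Nr2f2 transcripts is 59 bases and lies in both coding sequences, 1733 and 3680 bases from the transcript ends. The other pairs of members share at most 23 bases. How reads that match more than 1 gene were handled is not given in the sources used here, and the sharing of reads between members was not tested.

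The window before the start of Nr2e1 is shown because it was the only member window of the size searched that held the MEIS core. RefSeq windows (GRCm38.p6) run from 250 bases before to 50 after each start, and the 4 members matched 5 of them. The core, TGACAG or its reverse complement CTGTCA, is in capitals in the bases of chr10:42583633-42583840, minus strand. These run up to the GENCODE start of Nr2e1 at 42583632. Counted from the RefSeq start, which lies further along the gene, the core is at -49.

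Nr2e1 upstream: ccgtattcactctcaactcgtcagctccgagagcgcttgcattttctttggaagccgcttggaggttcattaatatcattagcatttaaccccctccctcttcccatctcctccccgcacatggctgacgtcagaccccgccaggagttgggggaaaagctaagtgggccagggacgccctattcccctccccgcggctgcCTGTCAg

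The core was in 19.2% of the 32851 windows of all genes, counted on both strands, so a match in 1 member is a description of these letters and not a binding site. The nuclear receptor half-site AGGTCA was in 16.3% of windows and in none of the members' windows. The sequence TAATCC, bound by the photoreceptor factors CRX and OTX2, was in 7.06% of windows and among the members only in that of Nr2f2.

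The libraries held 1625 to 17739 cells and 2376875 to 141540352 UMIs (molecules counted once by their barcode). P2 MEIS2 replicate 2 stood apart, with a median of 992 UMIs per cell against 2416 or more in the others. Its median mitochondrial share was 0.387%, against 2.00% or more in the others. The long non-coding RNA Malat1 made up 10.0% of its UMIs against 2.53% to 4.41% elsewhere. The 4 P5 libraries numbered 1 had median mitochondrial shares of 6.93% to 10.6% per cell, against 3.36% to 5.11% in the other P5 libraries. The level of a gene is given as CPM, its UMIs per 1000000 UMIs of the cell type in a library, for libraries with at least 20 cells of the type. Meis1 in progenitors lay at 2099 to 3750 CPM in the 4 libraries titled MEIS1 and at 164 to 354 CPM in the 8 controls, and Meis2 at 848 to 1830 CPM with MEIS2 against 34.6 to 197 CPM in controls, and the 4 combination libraries lay at 700 to 1001 CPM for Meis1 and 671 to 1588 CPM for Meis2. In P2 combination 2 the levels were 887 and 913 CPM. A treatment tag in the labels, which gives MEIS1 for all P2 and MEIS2 for all P5 single-construct libraries, was not followed. Cell barcodes start with the library title in 10 of 20 libraries and with another group's name in 2, P2 control 1 and P2 combination 2. Libraries shared at most 0.876% of the barcodes of the smaller of a pair. Cell types are the authors' own, drawn from the same cells, so levels across types are a description without a test. In the pooled cells of each type, 6 of 6 rod and 6 of 6 cone markers were highest in the type they mark, against 4 of 6 neurogenic, 3 of 6 amacrine, 3 of 6 Müller glia and 2 of 6 progenitor markers. The Müller glia markers Rlbp1, Glul and Dkk3 were highest in progenitors, and the progenitor markers Hes1 and Sfrp2 in Müller glia.

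Nr2f1 was detected in every type that had several control libraries, and among these it was highest in progenitors at P2. In P2 controls it averaged 80.4 ± 14.8 CPM in progenitors (SD, n = 4), 63.2 ± 9.61 in amacrine cells, 50.7 ± 13.2 in neurogenic cells, 30.8 ± 6.29 in rods and 14.8 ± 10.7 in cones. Neighbours in that order overlapped between libraries except rods and cones, and every progenitor library lay above every rod library. In P5 controls amacrine cells (64.8 ± 8.33 CPM), progenitors (63.1 ± 11.3) and neurogenic cells (60.4 ± 10.4) had similar levels within their spread, followed by bipolar cells at 42.9 ± 7.24. Cones (11.9 ± 1.81, n = 2) and rods (10.2 ± 4.14) were lowest.

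Nr2f2 had a different order, with amacrine cells above the other types that had several control libraries at P2. Its level in P2 amacrine cells was 164, 120, 89.8 and 180 CPM in control replicates 1 to 4. Progenitors, neurogenic cells, rods and cones averaged 17.7 to 24.5 CPM at P2, with the highest single library at 33.0 CPM, so amacrine cells did not overlap with any of them. The 1 P2 control library with enough starburst amacrine cells had 45.9 CPM and the 1 with enough bipolar cells 31.8 CPM. At P5 amacrine cells averaged 87.3 ± 39.9 CPM, cones 50.0 ± 22.6 (n = 2), rods 22.9 ± 7.38, neurogenic cells 17.6 ± 6.44, bipolar cells 16.7 ± 1.26 and progenitors 13.5 ± 5.59. The 2 P5 cone libraries were at 34.0 CPM, from 16 UMIs in 103 cells, and at 66.0 CPM, from 5 UMIs in 24 cells. Only the second lay within the range of the 4 amacrine libraries, 39.4 to 121 CPM, so the overlap with that range rests on 5 UMIs. These were P5 controls 1 and 2, whose own amacrine cells were at 39.4 and 69.3 CPM. Within each of these libraries cones thus lay a little below amacrine cells, which was not tested. Pooled over the 4 P5 controls, cones had Nr2f2 at 34.7 CPM from 21 UMIs. The Poisson interval of that level, for counting error only, was 21.5 to 53.1 CPM and reached above the lowest amacrine library.

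Among the types that had several control libraries, Nr2f6 and Nr2e1 were both highest in progenitors. Nr2f6 averaged 36.6 ± 8.85 CPM in P2 progenitors, 24.0 ± 8.26 in neurogenic cells and 17.4 to 21.7 in cones, rods and amacrine cells, with overlapping libraries between neighbours. At P5 the progenitor libraries (56.5 to 70.3 CPM) and the neurogenic libraries (33.0 ± 3.65) were apart from each other and from rods, amacrine and bipolar cells, which averaged 12.5 to 17.8 CPM. Nr2e1 averaged 66.8 ± 12.4 CPM in P2 progenitors, 19.0 ± 4.19 in neurogenic cells and 4.23 ± 0.917 in rods, with no overlap between these 3 types. At P5 it averaged 68.5 ± 9.91 CPM in progenitors and 29.9 ± 10.7 in neurogenic cells. It was listed at 0 in both P5 cone libraries. Pooled over the 4 P5 controls, cones had no UMI of Nr2e1. That allows 4.96 CPM at 3 UMIs and 6.10 CPM at the upper end of the Poisson interval. Rods averaged 1.25 CPM and bipolar cells 0.782 CPM at P5, so the 0 does not set cones apart from them.

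**Figure D1:**
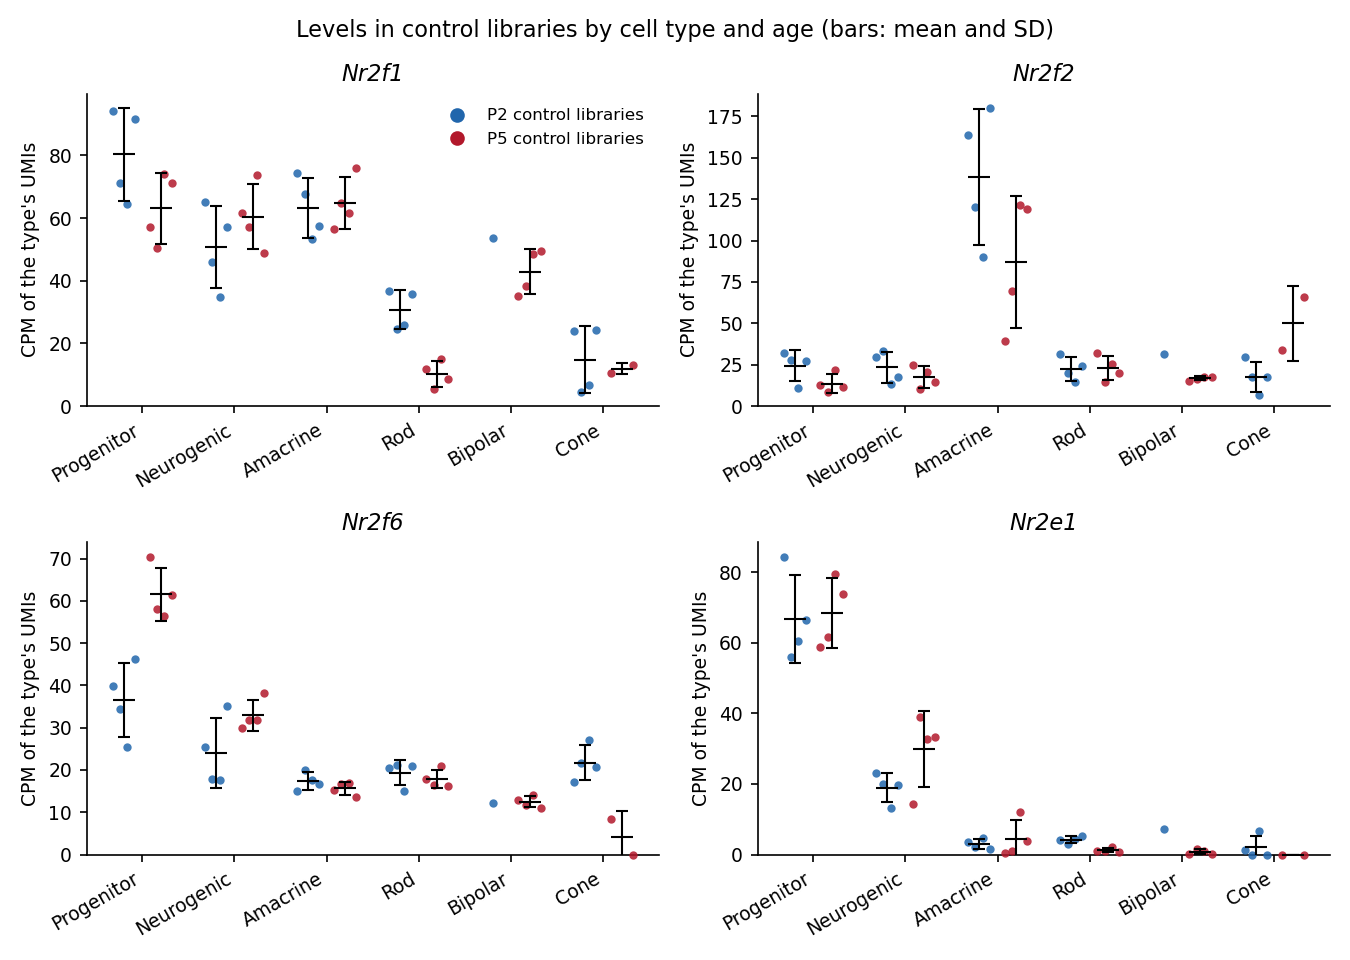
Level of each member in control libraries, as CPM on the vertical axis, by cell type on the horizontal axis, with 1 point per library and black bars for the mean and SD, at P2 and P5. Nr2f2 reaches 89.8 to 180 CPM in P2 amacrine cells and stays at or under 33.0 CPM in P2 progenitors, neurogenic cells, rods and cones.

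The rare types had too few cells per library, so the control cells of each age were pooled, with exact Poisson intervals (95%) that cover counting error only. In Müller glia, the radial glia of the retina, pooled Nr2f6 was 54.4 CPM (39.4 to 73.3) in 59 cells at P2 and 151 CPM (132 to 172) in 74 cells at P5, against 61.6 ± 6.20 CPM in P5 progenitors. GFP was at 265098 CPM in the Müller glia of P2 control 1 and at 15594 CPM in those of P5 control 3. GFP is among the UMIs by which CPM divides, and its part in these levels was not tested. Nr2f1 in Müller glia was 97.5 CPM (76.9 to 122) at P2 and 109 CPM (93.2 to 128) at P5. Nr2e1, the progenitor repressor, was 36.7 CPM (24.6 to 52.7) and 31.7 CPM (23.3 to 42.2) there. Starburst amacrine cells at P2 (50 cells) had Nr2f1 at 147 CPM (113 to 188) and Nr2f2 at 37.4 CPM (21.4 to 60.7), while Nr2e1 had no UMI, which allows 7.01 CPM at 3 UMIs and 8.61 CPM at the upper end of the Poisson interval. At P5 (27 cells, 26 of them in P5 control 1, where their median mitochondrial share was 19.7%) these cells had Nr2f1 at 47.0 CPM (25.7 to 78.8) from 14 UMIs and Nr2f2 at 3.36 CPM (0.0850 to 18.7) from 1 UMI. Both intervals lay below those at P2, and the difference was not tested over libraries. Without P2 control 1, the library that held most cells of both types at P2, P2 Nr2e1 in Müller glia was 15.8 CPM (3.25 to 46.1, from 3 UMIs). Nr2f6 in P2 Müller glia was then 78.9 CPM (44.1 to 130, from 15 UMIs), and Nr2f2 in starburst amacrine cells 16.2 CPM (1.96 to 58.6, from 2 UMIs). Nr2f1 in starburst amacrine cells was then 114 CPM (62.1 to 191), and both starburst intervals then overlapped those at P5.

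To set shares of cells beside each other at a common depth, each cell was thinned to 1000 UMIs. Nr2f2 then had a UMI in 12.4 ± 3.20% of P2 control amacrine cells (n = 4) and in 2.17 ± 0.695% of rods, against 41.6% and 7.06% without thinning. Nr2e1 had a UMI in 6.53 ± 1.07% of P2 progenitors and in 0.392 ± 0.0892% of rods, against 37.4% and 1.51% without thinning. For both genes the share was higher in the type with the higher CPM. At 1000 UMIs per cell the same counts largely fix this in advance, so it is no separate evidence. The median depths of the libraries were 2778 to 7827 UMIs in amacrine cells, 5503 to 12424.5 in progenitors and 1728 to 4867 in rods, and 40, 30 and 261 cells with under 1000 UMIs were left out. Of P2 amacrine cells with an Nr2f1 UMI, 12.9 ± 2.17% also had an Nr2f2 UMI, beside the 12.4% of all amacrine cells.

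The authors' clusters within amacrine cells gave the COUP-TF genes different profiles, again as a description. In P2 controls Nr2f2 averaged 186 CPM in cluster 6 and 36.5 CPM in cluster 17, whereas Nr2f1 averaged 47.0 CPM in cluster 6 and 91.0 CPM in cluster 17. Cluster 9 held the highest Nr2f1 average, 107 CPM, and Nr2f2 there was 108 CPM with a library range of 25.2 to 244. Among neurogenic cells Nr2e1 was higher in cluster 11 (38.2 CPM) than in cluster 4 (13.4 CPM).

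**Figure D2:**
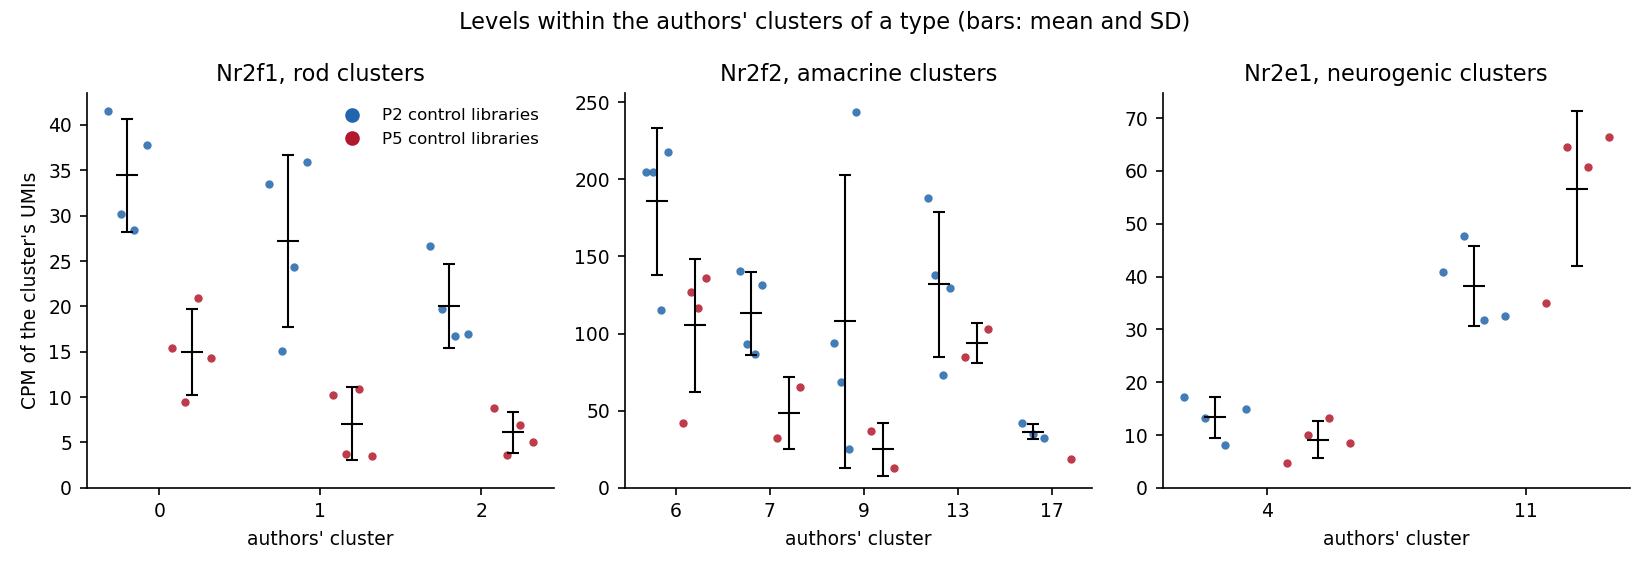
CPM on the vertical axis by the authors' cluster on the horizontal axis, for Nr2f1 in rods, Nr2f2 in amacrine cells and Nr2e1 in neurogenic cells, with 1 point per control library and black bars for the mean and SD, at P2 and P5. The P2 average of Nr2f2 is 186 CPM in amacrine cluster 6 and 36.5 CPM in cluster 17, and each rod cluster is lower in Nr2f1 at P5.

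The age labels were compared in the control libraries, 4 against 4, within each cell type. Nr2f1 and Nr2e1 were lower at P5 in rods and Nr2f6 was higher at P5 in progenitors, and these were 3 of the 17 tests of members that edgeR's quasi-likelihood test called when the threshold was a p under 0.05 after Benjamini-Hochberg adjustment. The same test called 13.2% of all genes in rods (5.94% lower), 17.5% in progenitors (10.6% higher), 9.27% in neurogenic cells, 0.397% in amacrine cells and 0.0605% in cones. Changes between the ages were thus frequent among all genes of rods, progenitors and neurogenic cells, against which 2 of 4, 1 of 4 and 0 of 4 members were called.

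In rods, Nr2f1 was at 36.7, 24.7, 26.0 and 35.7 CPM in P2 controls and at 11.9, 5.42, 15.0 and 8.50 CPM in P5 controls. Every P5 library lay below every P2 library, as happened in one direction or the other for 16.7% of genes. The log2 fold change was -1.68 (SE 0.26, edgeR adjusted p 0.000804). Nr2e1 in rods was low at both ages, with 4.07, 3.13, 4.39 and 5.35 CPM at P2 and 1.14, 0.976, 2.03 and 0.861 CPM at P5. These groups did not overlap either, and the log2 fold change was -1.83 (SE 0.42, edgeR adjusted p 0.00777). Nr2f2 in rods had a log2 fold change of -0.06 (SE 0.25) and Nr2f6 one of -0.20, with adjusted p of 0.917 and 0.514.

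In the same rod libraries the summed level of 6 rod markers went from 1254 to 2856 CPM at P2 to 5416 to 8851 CPM at P5, and 5 of the 6 rose. The sum of 6 neurogenic markers went from 286 to 662 CPM at P2 to 120 to 249 CPM at P5, and 4 of the 6 fell. The sum of progenitor markers was 24.1 to 37.6 CPM at P2 and 19.9 to 31.0 CPM at P5. The part of these markers in the 2 decreases was not tested. Within each of the 3 rod clusters the Nr2f1 average was lower at P5, with 34.5 and 15.0 CPM in cluster 0 and 27.2 and 7.07 CPM in cluster 1, while cluster 2 averaged 6.10 CPM at P5, below its lowest P2 library at 16.7 CPM. Nr2e1 averages were lower at P5 in each of these clusters as well. At 1000 UMIs per cell, Nr2f1 had a UMI in 2.87 ± 0.629% of rods at P2 and 0.895 ± 0.356% at P5 (n = 4 each), against 10.1% and 4.17% without thinning. In progenitors these shares were 7.61 ± 1.58% and 6.09 ± 1.07%, against 42.8% and 61.2% without thinning, where cells are deeper at P5.

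Nr2f1 (chromosome 13, 78188973 to 78199757, minus strand) overlaps the antisense gene A830082K12Rik (78198017 to 78279391, plus strand). The antisense gene was also lower at P5 in rods, with 9.23 to 16.8 CPM at P2 and 3.58 to 10.2 CPM at P5 (log2 fold change -1.11, SE 0.30, edgeR adjusted p 0.0207). The overlap, 78198017 to 78199757, holds the 5′ ends of both genes, and their 3′ ends lie outside it. Whether the counting used strand is not given in the sources used here, so reads within the overlap may not be told apart. Nr2f6 (chromosome 8, 71374123 to 71381960, minus strand) overlaps Ocel1 (71371298 to 71379361, plus strand), and that overlap holds the 3′ ends of both genes. Reads of Nr2f6 and Ocel1 may not be told apart there either. Ocel1 had a log2 fold change of 0.45 in progenitors (edgeR adjusted p 0.335). Nr2f2 lies on chromosome 7 at 70351944 to 70366735 and Nr2e1 on chromosome 10 at 42561963 to 42583632, both on the minus strand.

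In progenitors, Nr2f6 was at 40.0, 34.5, 25.4 and 46.3 CPM in P2 controls and at 70.3, 58.0, 56.5 and 61.4 CPM in P5 controls. Every P5 library was above every P2 library, as 18% of genes were apart in one direction or the other, and the log2 fold change was 0.76 (SE 0.18, edgeR adjusted p 0.00783). Without the 4 P5 libraries numbered 1 it was 0.64 and no longer passed (adjusted p 0.0820), the highest of 20 alternatives, whose adjusted p began at 0.00153. The part of the higher mitochondrial share of those libraries, 9.95% in P5 control 1, was not tested. Nr2f6 in progenitors and both rod results kept their direction and their call without P2 control 1 and P2 combination 2, the libraries whose barcodes start with another group's name. In the same libraries the summed level of 6 Müller glia markers was 1477 to 3688 CPM at P2 and 9428 to 16936 CPM at P5, with 5 of 6 higher, and the sum of neurogenic markers was 842 to 956 and 128 to 504 CPM, with 4 of 6 lower. The authors' cluster 3 held 46.8% to 92.3% of the progenitors of a control library at P2 and 74.1% to 97.1% at P5, the rest lying in clusters 12 and 16. Within cluster 3, Nr2f6 was at 19.6 to 45.0 CPM in P2 controls and at 56.3 to 69.7 CPM in P5 controls. The part of the markers in the increase of Nr2f6 was not tested.

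The other progenitor changes in controls did not pass the test. Nr2f1 had a log2 fold change of -0.35 (SE 0.14, adjusted p 0.0908), Nr2f2 one of -0.83 (SE 0.31, adjusted p 0.0738) and Nr2e1 one of 0.03 (SE 0.20, adjusted p 0.939). In control progenitors Nr2f2 averaged 18.5 CPM in cluster 3, 40.1 CPM in cluster 12 and 58.9 CPM in cluster 16 at P2. The 4 libraries reached from 6.10 to 26.7, 14.9 to 58.6 and 10.7 to 143 CPM (SD 57.7 in cluster 16), so the clusters overlapped. At P5 Nr2f2 averaged 10.2 CPM in cluster 3, and P5 control 3, where alone clusters 12 and 16 had 20 cells, was at 38.9 and 68.5 CPM there. In amacrine cells the log2 fold change of Nr2f2 was -0.76 (SE 0.39, adjusted p 0.60), with P5 controls at 39.4, 69.3, 121 and 119 CPM overlapping P2, and that of Nr2f1 was -0.05 (SE 0.24, adjusted p 0.963). In neurogenic cells the 4 members had adjusted p of 0.273 to 0.606. In cones only Nr2f2 passed the filter on low counts, with 29.4, 17.3, 6.79 and 17.3 CPM at P2 (log2 fold change 1.12, adjusted p 0.618), while Nr2f1, Nr2f6 and Nr2e1 were not tested there. In bipolar cells age was not tested, because 1 P2 control library held the minimum of 20 cells set here. Pooled over controls, as described for the rare types, Nr2f1 in bipolar cells was at 58.5 CPM (40.3 to 82.1, 81 cells) at P2 and 42.2 CPM (39.8 to 44.6, 2654 cells) at P5, and Nr2f2 at 31.9 CPM (18.9 to 50.4) and 16.7 CPM (15.2 to 18.3).

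**Figure D3:**
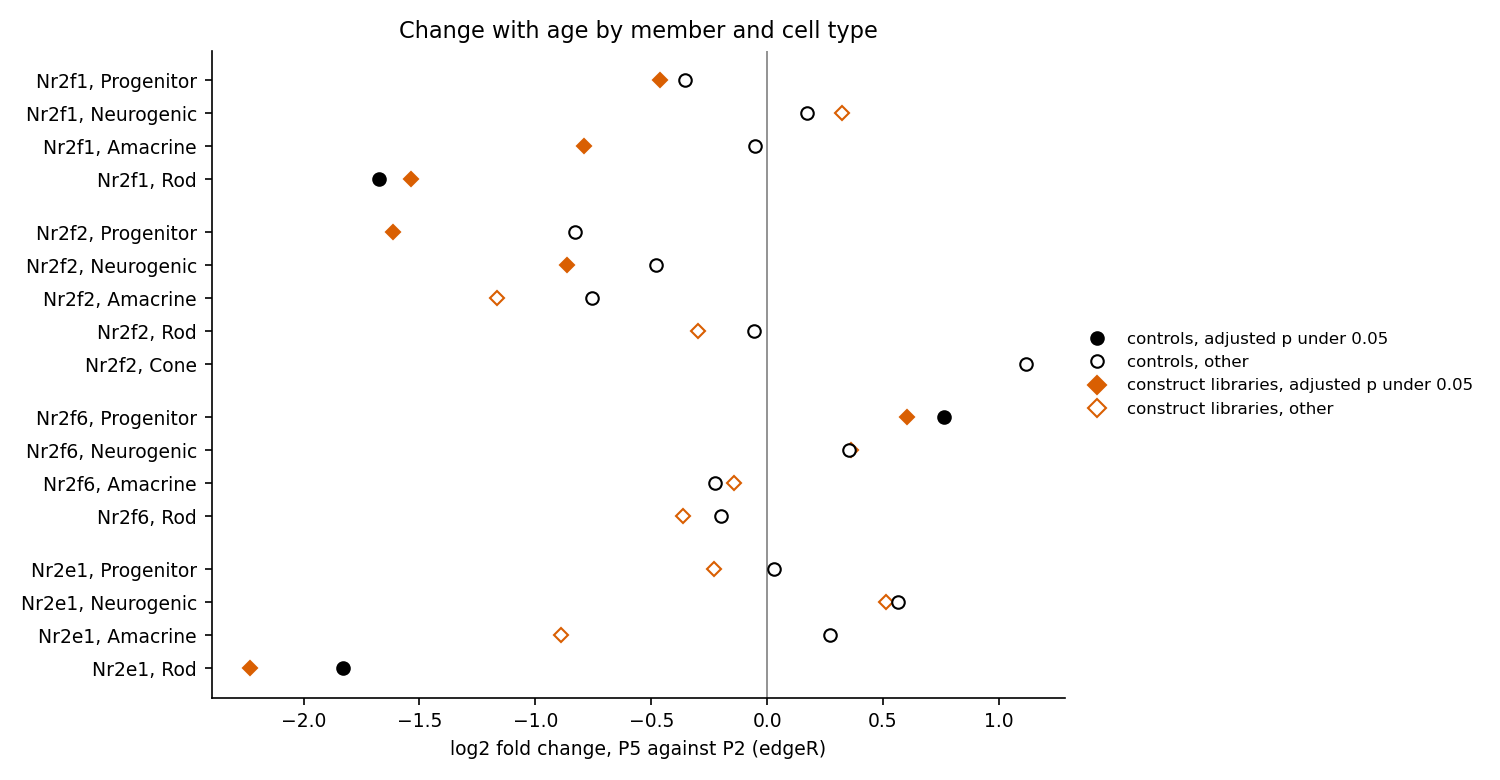
Log2 fold change between P5 and P2 on the horizontal axis for each member and cell type on the vertical axis, as circles for control libraries and diamonds for construct libraries, filled where the edgeR adjusted p is under 0.05. Nr2f1 and Nr2e1 in rods are below 0 in both sets of libraries, at -1.68 and -1.83 in controls and -1.54 and -2.23 in construct libraries.

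The 12 construct libraries share no library with the controls and were compared by age in the same way, 6 against 6, a comparison chosen after the data were seen. In rods Nr2f1 reached 32.2 to 42.9 CPM at P2 and 8.05 to 17.6 CPM at P5 (log2 fold change -1.54, SE 0.22, edgeR adjusted p 0.000132). Nr2e1 in rods lay at 4.64 to 13.9 CPM at P2 and 0.528 to 3.60 CPM at P5 (edgeR log2 fold change -2.23, SE 0.36, adjusted p 0.000337). Neither gene overlapped between the ages, as 9.75% of genes did not in these libraries, where 22.1% of genes were called in rods and 29.9% in progenitors. Nr2f6 in progenitors was higher at P5 here too (log2 fold change 0.60, adjusted p 0.00619), with overlapping libraries at 32.2 to 64.6 and 47.1 to 74.9 CPM.

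Both COUP-TF genes were lower at P5 in progenitors of the construct libraries. Nr2f2 lay at 22.2 to 96.9 CPM at P2 and at 9.09 to 17.4 CPM at P5 (log2 fold change -1.61, SE 0.27, edgeR adjusted p 0.000392), and at -1.44 without P2 MEIS2 replicate 2, its highest library. Nr2f1 lay at 97.4 to 118 CPM at P2 and at 56.8 to 82.2 CPM at P5 (edgeR log2 fold change -0.46, SE 0.12, adjusted p 0.00749). Neither overlapped between the ages, as 13% of genes did not. In the same libraries the sum of 6 Müller glia markers was 1450 to 2820 CPM at P2 and 8437 to 14030 CPM at P5, and that of 6 neurogenic markers 615 to 1078 and 135 to 632 CPM. Cluster 3 held 48.0% to 92.4% of these progenitors at P2 and 75.0% to 95.8% at P5. Within cluster 3 alone, Nr2f2 was at 18.9 to 94.3 CPM at P2 and 8.26 to 13.6 CPM at P5, and Nr2f1 at 92.2 to 113 and 55.6 to 82.6 CPM. The part of the markers in these decreases was not tested.

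Of 16 tests of members in these libraries 7 were called, the others being Nr2f2 in neurogenic cells (-0.86, adjusted p 0.0421, and -0.67, adjusted p 0.0998, without P2 MEIS2 replicate 2) and Nr2f1 in amacrine cells (-0.79, adjusted p 0.0385), where 13.8% and 2.98% of genes were called. Nr2f1 in amacrine cells averaged 96.2 ± 22.7 CPM at P2 and 55.9 ± 14.2 CPM at P5 in construct libraries (SD, n = 6 each), against 63.2 and 64.8 CPM in controls, where it was not called. The difference in the age change between construct and control libraries was tested directly in the 4 types that allow it and was called for no member, with an unadjusted p of 0.0274 for Nr2f1 in amacrine cells and of 0.0712 for Nr2f2 in progenitors as the lowest in their types.

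The constructs were then compared with control at each age, jointly and one by one. None of the 160 tests of members, the difference between ages included, was called by edgeR, and DESeq2 called 1 of the 147 to which it gave an adjusted p. An unadjusted edgeR p under 0.05 was reached in 14 of the 160, which share libraries and overlap as contrasts. The share of all genes under that unadjusted threshold is not given here, so the 14 are not read as a result about the members. By adjusted p the background was low too. For the 3 construct groups together, 0.0135% of genes were called in progenitors at P2 and 0.0202% at P5. The share at P5 was 0.00728% in neurogenic cells and 0.00678% in bipolar cells. In rods and amacrine cells 0 genes were called for the joint contrast at either age, and the single construct contrasts called 0.00673% to 0.0404% of genes in progenitors, at most 0.0218% in neurogenic cells, 0.0136% in bipolar cells and 0.00676% in rods, and none in amacrine cells. In progenitors at P2 Meis1 and Meis2 were called higher with the constructs, by 1.87 and 1.63 on the log2 scale, and no member was. The labels do not say from which species a construct comes or whether its message ends in a sequence that the kit would count, so a level of Nr2f1 or Nr2f2 need not report on a construct.

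Nr2f2 in progenitors with MEIS2 at P2 had the lowest adjusted p. It was at 32.2, 27.6, 10.6 and 27.4 CPM in controls, 40.4 and 29.0 CPM with MEIS1, 44.4 and 96.9 CPM with MEIS2, and 27.0 and 22.2 CPM with the combination. The log2 fold change of MEIS2 against control was 1.20 (SE 0.37, p 0.00534, edgeR adjusted p 0.171). It was 0.67 without MEIS2 replicate 2, the library with the fewest UMIs per cell, and 1.62 without MEIS2 replicate 1. DESeq2 gave 1.26 with an adjusted p of 0.0349, its 1 call. Over the alternatives the number of all genes called in this comparison ran from 0 to 2557, against 6 in the main fit. The number called by DESeq2 alone is not given here, so its call is not read as particular to Nr2f2. Both MEIS2 libraries were above all controls, as 19% of genes were apart in either direction in this comparison. At P5 the MEIS2 libraries were at 9.98 and 9.29 CPM, within the controls' 8.52 to 21.5 CPM.

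The same library was the highest for Nr2f2 in the other types at P2. It had 103 CPM in neurogenic cells, 69.5 in rods and 438 in amacrine cells, against 35.4, 34.4 and 223 CPM in MEIS2 replicate 1 and at most 33.0, 31.2 and 180 CPM in controls. The log2 fold changes of MEIS2 against control were 1.05, 0.96 and 1.17 with edgeR adjusted p of 0.286, 0.207 and 0.581. Without this library they were 0.39, 0.49 and 0.63. In each type both MEIS2 libraries were above all controls, where 20.6%, 19.9% and 13.3% of genes were apart in either direction. The part of its depth in these values was not tested.

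Nr2f1 showed small differences with the constructs at P2. In progenitors all 6 construct libraries, at 97.4 to 118 CPM, lay above the 4 controls at 64.4 to 94.2 CPM, and 0.882% of genes were apart in this way in one direction or the other. After scaling of the libraries by TMM the log2 fold change was 0.23 (edgeR adjusted p 0.621), and without TMM factors it was 0.41 (adjusted p 0.497). In amacrine cells the construct libraries had 105 and 94.3 CPM with MEIS1, 130 and 77.5 with MEIS2, and 106 and 65.5 with the combination, against 53.3 to 74.4 CPM in controls. The joint log2 fold change there was 0.55 (SE 0.22, p 0.0218, adjusted p 0.988).

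At P5 the lowest unadjusted p among the members came from Nr2f2 in bipolar cells. Nr2f2 in bipolar cells was at 15.0 to 17.7 CPM in controls, 10.4 and 13.5 with MEIS1, 11.1 and 9.48 with MEIS2, and 19.1 and 17.1 with the combination. The MEIS1 and the MEIS2 libraries were each below all controls, and 8.66% and 17.2% of genes were apart in either direction in these 2 comparisons. The log2 fold change of MEIS2 against control was -0.72 (p 0.00439, edgeR adjusted p 0.824). Nr2f1 in rods with the combination was at 17.4 and 17.6 CPM against 5.42 to 15.0 CPM in controls, groups that were apart as for 8.41% of genes (log2 fold change 0.83, p 0.0146, adjusted p near 1). Neither difference passed the test.

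**Figure D4:**
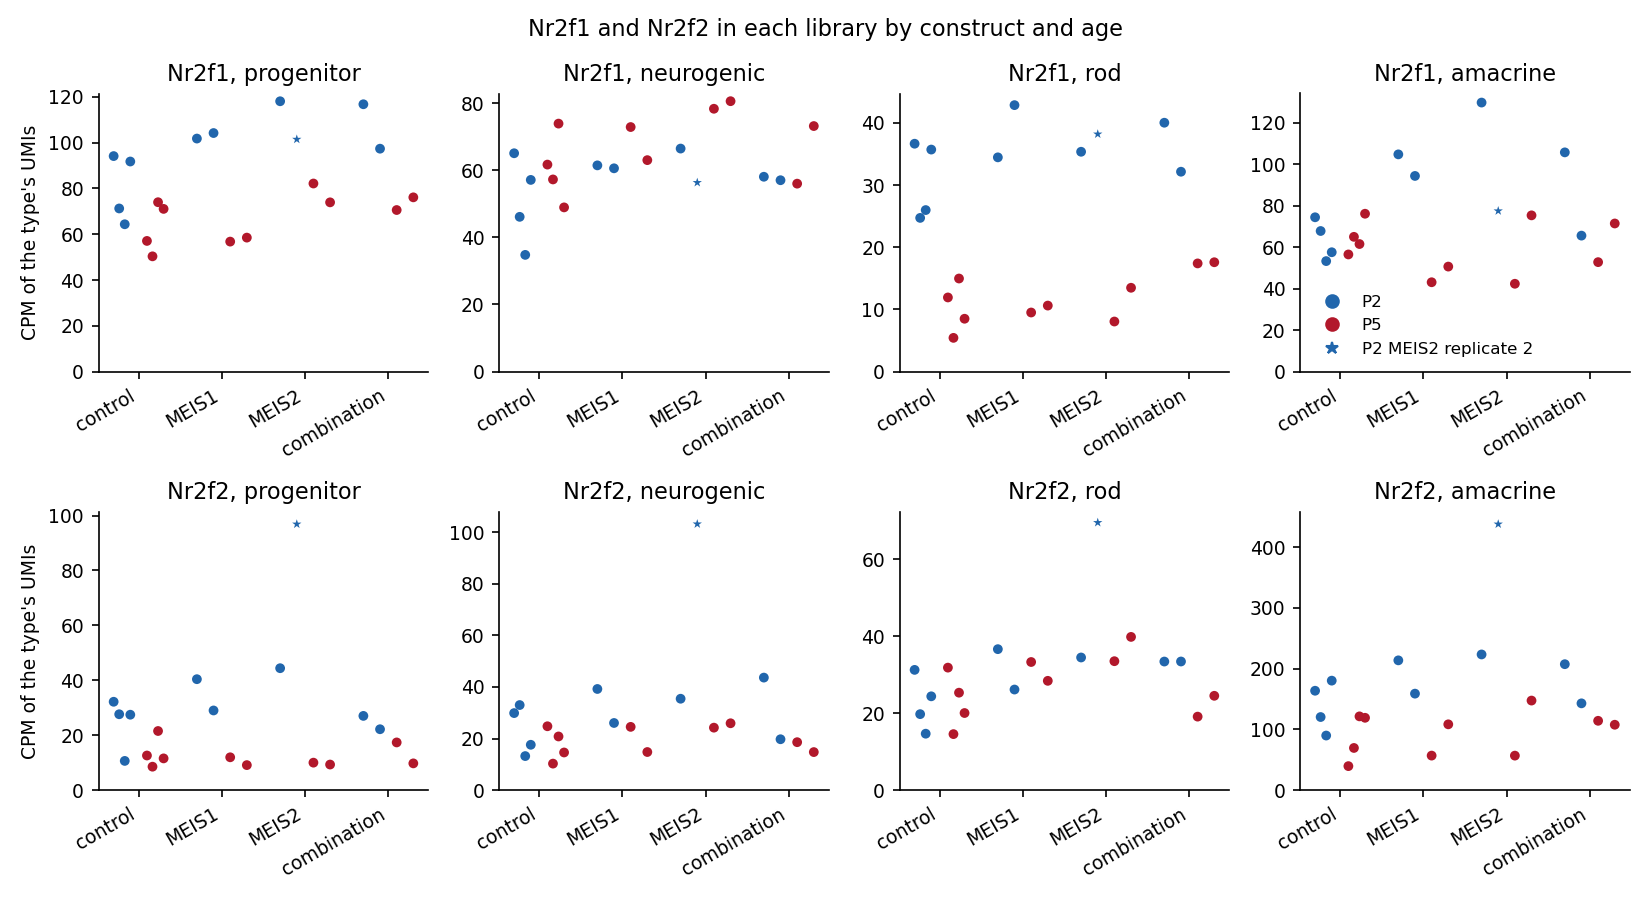
CPM of Nr2f1 and Nr2f2 on the vertical axis in each library of the control, MEIS1, MEIS2 and combination groups on the horizontal axis, at P2 and P5, in 4 cell types, with a star for P2 MEIS2 replicate 2. The highest Nr2f2 point in each P2 panel, 96.9 CPM in progenitors and 438 CPM in amacrine cells, is MEIS2 replicate 2.

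The other nuclear receptors of the mouse, 44 genes in all, were read beside the members in the age comparison of controls. Of all genes tested, 10.6% were called higher and 6.96% lower in progenitors, 7.24% and 5.94% in rods, 6.67% and 2.6% in neurogenic cells, and 0.351% and 0.0458% in amacrine cells, and the lists that follow are read against these shares. In rods 33 passed the filter, 10 were called higher at P5 and 2 lower, with a median log2 fold change of 0.38 against 0.00 over all genes tested. Among the 10 was Nr2e3, a photoreceptor-specific relative of Nr2e1, which had 420 ± 183 CPM at P2 and 1398 ± 311 CPM at P5 (n = 4 each, log2 fold change 1.67, edgeR adjusted p 0.00115). The thyroid hormone receptor gene Thrb, the mineralocorticoid receptor gene Nr3c2, Esrrb and Nr4a1 also rose, by 2.10, 2.23, 2.89 and 1.50 on the log2 scale. Rorb, an orphan receptor of early photoreceptor development, and Hnf4g were lower, at -1.21 and -1.85.

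In progenitors 28 of the 44 passed the filter, 5 were called higher and 1 lower, with a median of 0.16 against -0.04 over all genes, which is 5 of 28 and 1 of 28 beside 10.6% and 6.96% of all genes. The immediate early genes Nr4a3 and Nr4a1 led with log2 fold changes of 3.94 and 3.73, followed by Nr1d1 (1.08), Rora (0.87) and Thra (0.87), and Nr6a1 was lower at -0.52. In neurogenic cells Nr4a3, Nr4a1 and Nr3c2 rose and Rorb fell, out of 28 tested. In amacrine cells the estrogen receptor gene Esr1 was the 1 receptor called of 29 (3.41).

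Of 15 known partners and co-repressors of COUP-TF and Tlx proteins, 2 were called higher and 4 lower at P5 in progenitors, against 10.6% and 6.96% of all genes. Zfpm2, which encodes the COUP-TF partner FOG2, went from 91.0 ± 38.9 to 245 ± 45.2 CPM (log2 fold change 1.47), and Atn1 was higher by 0.78. Bcl11b, Rcor2, Bcl11a and Kdm1a, whose products act in repressor complexes, were at -2.51, -1.74, -1.16 and -0.50. Bcl11b averaged only 2.10 CPM at P2 and 0.313 CPM at P5. In rods Bcl11a (-1.99), Bcl11b (-1.32) and Rcor2 (-0.99) fell and none rose, and in neurogenic cells Zfpm2 was the 1 gene called (1.47). The median over the 15 was -0.08 in progenitors and -0.31 in rods.

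Genes of the dorsal and ventral axis of the retina, which COUP-TF proteins are known to help set, were called in both directions. In progenitors, of 14 tested, Cyp26a1 (1.47) and Ephb3 (0.69) were higher at P5 and Aldh1a3 (-3.66) and Tbx3 (-0.75) lower, against 10.6% and 6.96% of all genes. In neurogenic cells Bmpr1b (1.52) and Efnb1 (0.98) were higher of 11 tested, and in rods Efnb1 (-1.63) and Tbx2 (-1.61) were lower of 10. Of 5 genes that Tlx represses in neural stem cells, the astrocyte and glial genes Aqp4 (3.50) and Gfap (3.13) were higher at P5 in progenitors, where Nr2e1 itself had a log2 fold change of 0.03. Aqp4 averaged 0.570 CPM at P2 and 6.50 CPM at P5, and Gfap 0.331 and 3.17 CPM. The sum of the Müller glia markers was also higher at P5 in these libraries, as given above. Aqp4 is itself among those markers, so the 2 lists are not separate.

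Of 18 amacrine fate factors, 17 were tested in progenitors and 7 were called lower at P5 and none higher, with a median of -1.68, against 6.96% of all genes called lower and a median of -0.04 over all genes. The 5 with the largest changes were Ptf1a (-3.98), Neurod4 (-3.40), Foxn4 (-3.14), Tfap2a (-2.99) and Neurod1 (-2.63). In the same libraries the sum of 6 neurogenic markers was 842 to 956 CPM at P2 and 128 to 504 CPM at P5. That of 6 Müller glia markers was 1477 to 3688 CPM and 9428 to 16936 CPM, and that of 6 amacrine markers 325 to 353 CPM and 285 to 429 CPM. The part of these markers in the decreases was not tested. In neurogenic cells, of 17 tested, Ptf1a, Tfap2a, Prdm13, Foxn4 and Neurod1 were lower and Isl1 higher. In rods, of 17 tested, 5 were lower and none higher, among them Ptf1a, Neurod4, Pax6 and Meis2. In amacrine cells Ebf3 was higher and none lower, of 17 tested. Between constructs and control at either age, the calls among these 5 lists were Meis1 and Meis2 in progenitors and, at P5, Meis1 in neurogenic cells.

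The genes whose control profiles were most like each member were ranked over 11 profiles of cell type and age, among 9941 genes, by the Pearson correlation of mean log2(CPM + 1). This is a description, since the profiles share libraries and cell types. For Nr2f2 the closest gene was the amacrine factor Tfap2b (0.96), followed by Sez6l, Plcxd3, Lrrtm4 and Brinp1. For Nr2e1 they were Gprc5c (0.99), Pdcd6, Tnfaip6, the filament gene Vim and Pon2, for Nr2f6 they included Mpc1 (0.97), D10Jhu81e, Cers2 and Josd2, and for Nr2f1 they were Coro1c (0.97), Ap1s1, Gjc1, Ddr1 and Lrp1. Among the members, Nr2f6 and Nr2e1 were most alike (0.81) and Nr2f2 and Nr2f6 least (-0.44), with the COUP-TF pair at 0.15.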

How the data were processed

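The data are single-cell UMI counts from 20 libraries of mouse retinal explants. The authors deposited raw counts per gene and cell, with a description of cells that gives their library, cell type, cluster and mitochondrial UMIs as a percent. Per the series' design text, reads went through Cell Ranger on mm10 with a GFP locus added, and the submitters' processing notes name Seurat 5. How multimapping reads and strand were handled is not given in the sources used here. Every deposited cell has at least 1 GFP UMI and 501 to 46192 UMIs, and doublets were not removed again here.

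For each library and each of the authors' cell types with at least 20 cells in it, the counts were added up. Genes passing filterByExpr were scaled by TMM and fitted in edgeR 4.0.16 (R 4.3.3) as 1 model with 8 group means, with the two-sided quasi-likelihood test and Benjamini-Hochberg adjustment over all genes tested, for contrasts where every group kept 2 libraries. All 4 members passed that filter in progenitors, neurogenic cells, rods, amacrine and bipolar cells, and 1 of 4 in cones. The test was checked on simulated counts. The members and the lists of other genes were chosen with earlier results of these data known. Members are named in every comparison, and of each list the called genes, up to 5 in each direction by size. A few genes that this rule names are not reported here. The alternatives tried were DESeq2 1.42.0, unscaled library sizes, all genes with a count, at least 50 cells, only the groups compared, a replicate block, groups read from barcode starts, and libraries left out. Positions and coding sequences are those of GENCODE vM21 on mm10, and the windows at gene starts are RefSeq's (GRCm38.p6).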

Additional observations from a re-analysis of the deposited data

Results flagged for a closer look

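Of 76 groups of 4 control or 6 construct libraries examined for each member, cell type and age, 8 had a library far from the others by Dixon's criterion, which chance gives in about 5% of groups. The same library, P2 MEIS2 replicate 2, was the high one in 6 of the 8 among the 6 P2 construct libraries. Nr2f2 was at 96.9 CPM there in progenitors (next library 44.4), 103 CPM in neurogenic cells (next 43.6), 69.5 CPM in rods (next 36.6) and 438 CPM in amacrine cells (next 223). Nr2f6 was at 34.4 CPM there in neurogenic cells (next 24.6), and Nr2e1 at 13.9 CPM in rods (next 7.89). This library has the lowest median UMIs per cell of the series, 992, and the highest Malat1 share, 10.0%, whose part in these values was not tested. Nr2f2 in progenitors of P5 combination replicate 1 was high at 17.4 CPM (next 11.9), within the range of the P5 controls. Nr2f6 in rods of P2 control 3 was low at 15.0 CPM (next 20.4).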

How the results depend on the processing

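The log2 fold changes of Nr2f1 and Nr2e1 with age in rods stayed called under all 20 alternatives, at -1.92 to -1.48 and -2.28 to -1.67, and that of Nr2f6 in progenitors under 19 of 20, at 0.51 to 0.91, the exception being 0.64 (adjusted p 0.0820) without the P5 libraries numbered 1. Of 2939 alternative values of 177 tests, 2916 stayed on their side of the threshold. The rest were mainly changes with age that passed only under an alternative. Since 2879 of the values belong to the 174 tests not called at first, many with an adjusted p near 1, this count says little about stability. In 206 of the 2879 the sign of the change differed. DESeq2 gave -0.37 (adjusted p 0.0409) for Nr2f1 and -0.85 (0.0494) for Nr2f2 in progenitors, and 1.26 (0.0349) for Nr2f2 with MEIS2 at P2. With construct libraries in place of controls (chosen after seeing the data), the changes with age were -0.46 for Nr2f1 and -1.61 for Nr2f2 in progenitors, -0.86 for Nr2f2 in neurogenic cells and -0.79 for Nr2f1 in amacrine cells. Without P2 MEIS2 replicate 2 these were -0.52, -1.44, -0.67 (no longer called) and -0.91, and Nr2e1 in progenitors was -0.38 (adjusted p 0.0269) against 0.03 in controls. Without P2 combination replicate 2 they were -0.51, -1.67, -1.03 and -0.89. Without the P5 libraries numbered 1, Nr2e1 in neurogenic cells was 0.79 (adjusted p 0.0367). The cause of these differences was not tested.

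Leaving out each library in turn gave, for the changes with age, -1.11 to -0.67 for Nr2f2 in progenitors, passing without P2 control 3 (-1.06) or P5 control 3, and 0.24 to 0.59 for Nr2f6 in neurogenic cells, passing without P2 control 4. For Nr2f2 with MEIS2 at P2 it gave 0.67 to 1.62 in progenitors, 0.39 to 1.79 in neurogenic cells and 0.49 to 1.45 in rods. The highest value in each came without MEIS2 replicate 1, when the lone replicate 2 is assumed to vary like the other groups. Replicate numbers were not taken to pair the libraries, since in no type and age did every pair of same-numbered libraries correlate above 0.1. This rule is no test for a shared batch, since 1 odd library decides it and the 2 libraries of a construct group mirror each other. In P5 rods and amacrine cells the libraries numbered 1 of control, MEIS1 and MEIS2 correlated at 0.56 to 0.61. Whether these share a batch was not tested. The lowest correlations were -0.22 to -0.11 at P2, -0.20 and -0.15 in P5 amacrine cells and rods, and 0.03 to 0.06 in P5 progenitors, neurogenic and bipolar cells, where every pair was thus above 0, and the highest were 0.35 to 0.61. A replicate block changed the call of 0 of 177 tests, and Nr2f1 in rods was at -1.71 with it.

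Shares of cells with a UMI scaled with depth. Thinned to 2000 UMIs, Nr2f1 was in 14.5% of P2 and 11.7% of P5 progenitors and in 5.75% and 1.72% of rods, Nr2f2 in 22.3% of P2 amacrine cells and 4.07% of P2 rods, and Nr2e1 in 12.4% of P2 progenitors and 0.770% of P2 rods. The values without thinning were 42.8%, 61.2%, 10.1%, 4.17%, 41.6%, 7.06%, 37.4% and 1.51% in that order. None of 256 alternatives moved one of 44 mean levels by its SD or more. Many of them leave out 1 library, which cannot move a mean of 4 or of 2 libraries that far. The count is thus no test of the levels. Counts over all genes moved more. With age they were 1148 to 4556 in progenitors (2602 reported), 1124 to 3273 in rods (1949), 856 to 1897 in neurogenic cells (1274), 4 to 390 in amacrine cells (52) and 0 to 44 in cones (4). For the 3 construct groups at P2 they were 0 to 761 in progenitors (2), 0 to 1053 in neurogenic cells (0), 0 to 576 in rods (0) and 0 to 2 in amacrine cells (0). At P5 they were 0 to 6 in progenitors (3), 0 to 3 in neurogenic cells (1) and 0 to 44 in bipolar cells (1). For MEIS2 at P2 they were 0 to 2557 in progenitors (6), 0 to 1356 in neurogenic cells (0), 0 to 1332 in rods (0) and 0 to 373 in amacrine cells (0), and for the combination 0 to 433 in neurogenic cells at P2 (0) and 0 to 680 in bipolar cells at P5 (0).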
